A study of Mus musculus with 32 samples.

Results

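The genes described here are 38 genes of the integrated stress response and the unfolded protein response, of 19938 named genes on the array. They were chosen by name, with earlier results of these data known. The list held 14 genes of the ATF4 amino acid response arm and 4 genes of endoplasmic reticulum (ER) stress sensing. It also held 13 ER chaperones and folding factors and 7 genes of ER-associated degradation. Each gene was read from its brightest probe set, and all 38 were on the array and passed the filter on low signals. They were measured in the atria of 16 mice of a mixed C57BL/6/FVB/N background, with 1 Affymetrix Mouse Gene 1.0 ST array for each left and right atrium and 4 mice in each of 4 genotypes. Ntg mice carried no transgene. dnPI3K mice carried a dominant negative form of phosphoinositide 3-kinase, the kinase that relays insulin and growth factor signals. Mst1 mice carried mammalian sterile 20-like kinase 1, a stress-activated kinase encoded by Stk4, and dnPI3K-Mst1 mice carried both. The labels describe all 4 groups as kept on standard chow and do not name the promoter of either transgene or the age of the mice. Every value below is the mean of an animal's 2 arrays on the log2 scale unless an array is named, so n is 4 animals in each group, a number that limits the precision.

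The integrated stress response begins with kinases that phosphorylate the translation factor eIF2 alpha, among them the ER sensor PERK (Eif2ak3). General protein synthesis then slows while ATF4 is translated, and ATF4 switches on genes for amino acid synthesis and transport together with Ddit3 and Ppp1r15a. The other 2 branches of the unfolded protein response run through ATF6 and through IRE1 (Ern1) with its target Xbp1, and they raise chaperones and the machinery that clears misfolded proteins from the ER. Cardiac myocytes depend on this machinery for the folding of membrane and secreted proteins, and atrial myocytes secrete peptide hormones in large amounts.

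The stretches below are shown because they carry letters known from stress response promoters beside genes that moved in different directions. In the 250 bases before the annotated start, 34 members had a RefSeq sequence (build GRCm38.p6), and both strands were searched. The ER stress element (CCAAT, 9 further bases, then CCACG), to which ATF6 is known to bind with NF-Y, was found in 9 of the 34 and in 0.113% of 32851 promoters. Of those 9, 7 were chaperones (Calr, Canx, Creld2, Dnajc3, Hsp90b1, Hspa5 and Pdia6, of 11 chaperones with a sequence), 2 were degradation genes (Derl3 and Syvn1), and 0 were among the 14 genes of the ATF4 arm. The first 5 sequences are from chaperones that were higher in Mst1 than in Ntg atria, and Calr is a chaperone with the same arrangement that was not called. Canx, not shown, also holds the element and was not called. Of the chaperones with a sequence but no match, Pdia3, Pdia4 and Sdf2l1 were higher in Mst1 too, and Dnajb9 was not called. CCAAT and CCACG are in capitals, and they read as ATTGG and CGTGG where the match is on the other strand.
Creld2: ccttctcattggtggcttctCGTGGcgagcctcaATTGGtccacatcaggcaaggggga
Hsp90b1: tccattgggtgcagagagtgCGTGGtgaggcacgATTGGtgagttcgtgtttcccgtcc
Pdia6: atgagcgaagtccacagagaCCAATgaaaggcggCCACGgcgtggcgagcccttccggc
Dnajc3: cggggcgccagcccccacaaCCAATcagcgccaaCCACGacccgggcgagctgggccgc
Hspa5: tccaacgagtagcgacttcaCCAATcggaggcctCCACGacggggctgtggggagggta
Calr: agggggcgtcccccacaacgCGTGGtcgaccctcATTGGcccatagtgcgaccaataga
They lie at chr15:88819500-88819558 (Creld2, plus strand), chr10:86705513-86705571 (Hsp90b1, minus strand), chr12:17266471-17266529 (Pdia6, plus strand), chr14:118937807-118937865 (Dnajc3, plus strand), chr2:34772005-34772063 (Hspa5, plus strand) and chr8:84847055-84847113 (Calr, minus strand), each upstream of the annotated gene. Hsp90b1 holds a second match farther upstream, 212 to 194 bases before the start.

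The C/EBP-ATF response element bound by ATF4 was searched as TGATGNAA, which was found in 3.45% of all promoters and in 4 of the 34 members: Asns, Atf3 and Chac1 of the ATF4 arm, and Herpud1, a degradation gene. In the sequences these 8 bases are in capitals, and they read as their reverse complement in Atf3, Chac1 and Herpud1. They are shown because Atf3 was higher in Mst1 than in Ntg atria while Asns, Chac1 and Herpud1 were lower. Herpud1 also holds the second ER stress element (ATTGG, 1 base, then CCACG), in capitals too, which was found in 0.0304% of promoters and in 1 member.
Asns: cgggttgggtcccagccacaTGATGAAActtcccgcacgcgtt
Atf3: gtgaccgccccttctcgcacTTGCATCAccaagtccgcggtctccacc
Chac1: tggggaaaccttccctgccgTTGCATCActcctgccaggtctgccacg
Herpud1: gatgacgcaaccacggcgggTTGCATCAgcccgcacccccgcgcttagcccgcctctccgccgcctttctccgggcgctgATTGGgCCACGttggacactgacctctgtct
These lie at chr6:7693210-7693252 (Asns, minus strand), chr1:191183416-191183463 (Atf3, minus strand), chr2:119351029-119351076 (Chac1, plus strand) and chr8:94386297-94386407 (Herpud1, plus strand). The cyclic AMP element TGACGTCA was found in 1.55% of promoters and in 1 member, Ppp1r15a. The element TGACGTGG was found in 0.563% of promoters and in 0 members. A match of letters is a description of these windows and does not show that a factor binds there.

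**Figure D1:**
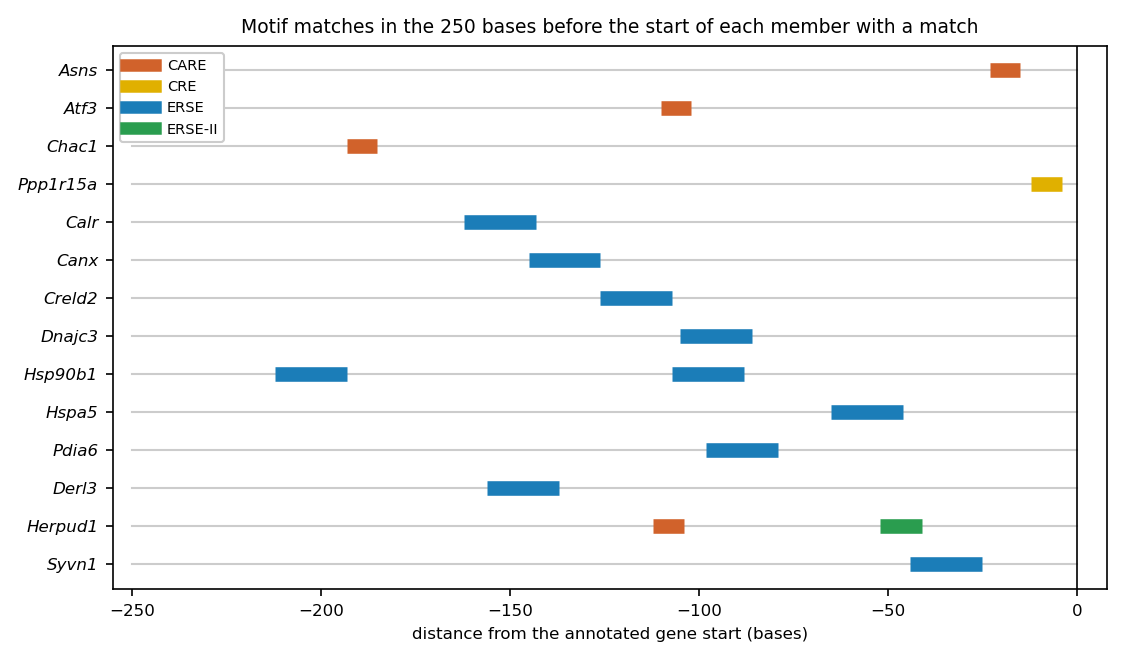
Positions of the motif matches in the 250 bases before the annotated start of the 14 members with at least 1 match, one line per gene, in bases from the start. ER stress elements (ERSE, blue) sit in 7 chaperones and in Derl3 and Syvn1, C/EBP-ATF elements (CARE, orange) in Asns, Atf3, Chac1 and Herpud1, the cyclic AMP element (CRE, yellow) in Ppp1r15a and the second ER stress element (ERSE-II, green) in Herpud1.

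The arrays had medians between 5.51 and 5.68 log2, and 4 of 32 had a mean correlation with the others under 0.97, namely the right array of Ntg 1662 and the left arrays of Mst1 1466, dnPI3K 1507 and dnPI3K 3241. The labelled side is not uniform across groups. The atrial ligand gene Bmp10 differed between the 2 arrays of each animal by 5.87 to 8.78 log2, and was higher on the array labelled left in 4 of 4 dnPI3K and 4 of 4 dnPI3K-Mst1 animals but in 3 of 4 Mst1 and 2 of 4 Ntg animals. A comparison on 1 labelled side would thus set different atria against each other, and the mean of both atria is used. Stk4 averaged 7.54 log2 in Ntg, 7.61 in dnPI3K, 8.25 in Mst1 and 8.33 with both transgenes, and Pik3ca 9.11, 10.04, 9.73 and 10.27. Whether the dominant negative construct is read by the Pik3ca probe set cannot be told from the labels. Of the 7 markers of atrial myocytes all were tested, with Nppa at a mean of 13.41 log2 and Myl7 at 12.39 over all arrays, against 5.50 for the ventricular marker Myl2.

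In Mst1 against Ntg atria 19 of the 38 genes were higher and 4 lower at an adjusted p under 0.05 (limma over 15219 genes), where 12.6% of all genes tested were higher and 14.2% lower. The median change of the 38 was 0.275 log2, against -0.0011 over all genes. As the list was chosen with earlier results of these data known, the shares beside its counts describe it and do not test it. Chaperones moved one way, with 10 of 13 higher, 0 lower and a median of 0.40. The ATF4 arm was divided, with 4 of 14 higher, 3 lower and a median of 0.05. Genes of ER stress sensing, with Xbp1 counted among them, had 2 of 4 higher, and degradation genes 3 of 7 higher and 1 lower.

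In dnPI3K against Ntg atria 0 of the 38 genes were higher and 3 were lower, all 3 of them in the ATF4 arm. Over all genes 1.29% were higher and 2.75% lower. Without adjustment, at p under 0.05, 0 members were higher and 5 lower, where 6.22% of all genes were higher and 10.7% lower. The median over the ATF4 arm was -0.09 log2 and over the chaperones 0.03.

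In dnPI3K-Mst1 against Ntg atria 16 of the 38 were higher and 6 lower, where 16.4% of all genes were higher and 14.2% lower. Of the chaperones 6 of 13 were higher and 0 lower (median 0.29 log2), and of the ATF4 arm 4 of 14 were higher and 5 lower (median 0.05). Genes of ER stress sensing, with Xbp1 counted among them, had 3 of 4 higher, and degradation genes 3 of 7 higher and 1 lower. These 3 comparisons share the same 4 Ntg animals. Centring each array on its median moved the share of higher genes among all calls from 32% to 21.3% in dnPI3K against Ntg and from 53.7% to 42.7% in dnPI3K-Mst1 against Ntg. The members higher were then 0 and 12 and those lower 3 and 6. Of all genes, 0.959% and 12.5% were then higher and 3.55% and 16.7% lower, and the 6 of 38 lie near that last share.

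**Figure D2:**
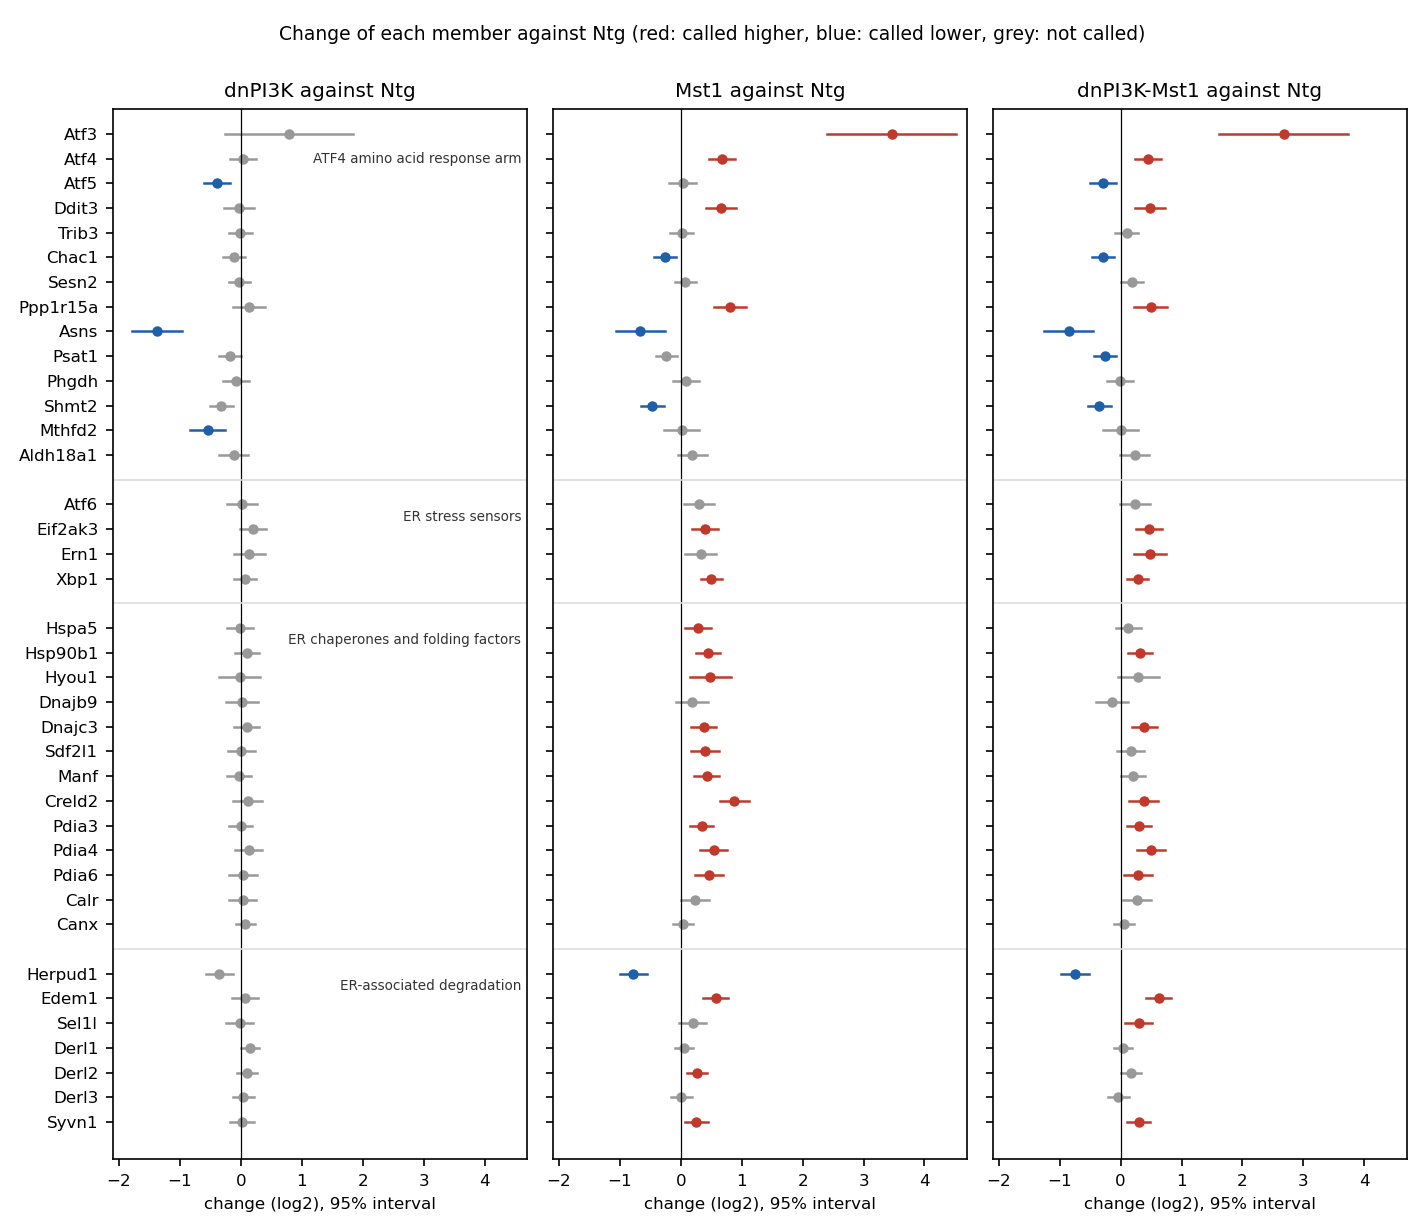
Change of each of the 38 members against Ntg on the log2 scale, one panel per genotype, with points for the change and lines for its 95% interval (4 animals against 4). Red marks members called higher, blue called lower and grey not called. In the Mst1 panel 10 of 13 chaperones are red and none is blue, while the ATF4 arm has 4 red and 3 blue points, and the dnPI3K panel has 3 blue points, all in the ATF4 arm.

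The members were then followed by role, and values are given in order of animal number: 1301, 1657, 1662 and 1834 for Ntg, 1507, 1648, 1660 and 3241 for dnPI3K, 1466, 1838, 1839 and 1840 for Mst1, and 1509, 1647, 1649 and 1650 for dnPI3K-Mst1. Atf4 stood at 7.22, 7.33, 7.39 and 7.29 in the Ntg group, 7.33, 7.17, 7.59 and 7.26 with dnPI3K, 7.72, 8.03, 8.1 and 8.09 with Mst1 and 7.6, 7.69, 7.8 and 7.91 with both transgenes. Atf4 is the transcription factor at the centre of the arm, and its translation, which arrays do not measure, is the main point of its control. Every Mst1 and dnPI3K-Mst1 animal lay above every Ntg and dnPI3K animal. Atf4 rose by 0.68 ± 0.10 log2 (SE, adjusted p = 4.1e-05) in Mst1 and by 0.44 ± 0.10 (adjusted p = 0.0023) in dnPI3K-Mst1 against Ntg. In dnPI3K it differed from Ntg by 0.03 ± 0.10 (95% interval -0.18 to 0.24, adjusted p = 0.92).

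Ddit3 stood at 6.91, 6.74, 6.4 and 6.85 in the Ntg group, 6.74, 6.64, 6.98 and 6.39 with dnPI3K, 7.56, 7.33, 7.38 and 7.28 with Mst1 and 7.18, 7.07, 7.29 and 7.28 with both transgenes. Ddit3 encodes CHOP, the factor that links unresolved ER stress to cell death. Again all 8 animals with Mst1 lay above all 8 without it. Ddit3 rose by 0.67 ± 0.12 in Mst1 (adjusted p = 0.00024) and 0.48 ± 0.12 in dnPI3K-Mst1 (adjusted p = 0.0036), and in dnPI3K it differed from Ntg by -0.04 ± 0.12 (interval -0.28 to 0.21). Ppp1r15a stood at 6.88, 6.95, 6.83 and 6.99 in the Ntg group, 7.21, 7.02, 7.19 and 6.8 with dnPI3K, 7.25, 7.72, 7.91 and 8.0 with Mst1 and 7.43, 7.26, 7.46 and 7.47 with both transgenes. Ppp1r15a encodes the phosphatase subunit that reverses eIF2 alpha phosphorylation. It rose by 0.81 ± 0.13 in Mst1 (adjusted p = 6.3e-05) and by 0.49 ± 0.13 in dnPI3K-Mst1 (adjusted p = 0.0054), and Mst1 1466 had the lowest of the Mst1 values.

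Atf3 stood at 5.92, 8.19, 5.92 and 5.9 in the Ntg group, 7.26, 7.1, 8.71 and 6.02 with dnPI3K, 8.89, 10.1, 10.19 and 10.59 with Mst1 and 8.94, 8.68, 9.54 and 9.46 with both transgenes. Atf3 is a stress-induced factor downstream of ATF4 and also an immediate early gene. All animals with Mst1 lay above all Ntg animals and above 3 of the 4 dnPI3K animals. Ntg 1657 and dnPI3K 1660 stood well above the rest of their groups, and dnPI3K 1660 lay just above the lowest dnPI3K-Mst1 animal. Atf3 rose by 3.46 ± 0.51 log2 (11-fold, adjusted p = 3e-05) in Mst1 and by 2.67 ± 0.51 (adjusted p = 0.00039) in dnPI3K-Mst1 against Ntg. In dnPI3K the change was 0.79 ± 0.51 (adjusted p = 0.48).

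The Atf3 values of single arrays show that the animals without Mst1 differed between their own atria. In Ntg 1657 the array labelled left read 6.20 and the right 10.17, in dnPI3K 1660 6.66 and 10.76, in dnPI3K 1507 5.68 and 8.85, and in dnPI3K 1648 6.22 and 7.98. In each of these 4 animals the higher Atf3 was on the array with the lower Bmp10. In the other 4 animals without Mst1 both arrays lay between 5.72 and 6.20, and in the 8 animals with Mst1 between 8.55 and 10.63. Read on arrays labelled right alone, the Atf3 difference of dnPI3K-Mst1 from Ntg was 2.02 (adjusted p = 0.11), from dnPI3K 0.72 (adjusted p = 0.66), and that of Mst1 from dnPI3K 1.67 (adjusted p = 0.23). Bmp10 was the lower on the right in 4 of 4 animals of both dnPI3K groups, 3 of 4 Mst1 and 2 of 4 Ntg animals. The first and last of these differences thus set unlike mixes of atria against each other.

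Atf5 stood at 8.22, 8.14, 8.51 and 8.17 in the Ntg group, 7.97, 7.94, 7.95 and 7.61 with dnPI3K, 8.28, 8.21, 8.33 and 8.35 with Mst1 and 8.14, 7.74, 7.91 and 8.1 with both transgenes. Atf5 is a related factor known for its part in the mitochondrial unfolded protein response. Mst1 values overlapped those of Ntg (0.03 ± 0.10, adjusted p = 0.88), while all dnPI3K values lay below all Ntg values. Atf5 fell by 0.39 ± 0.10 in dnPI3K (adjusted p = 0.038) and by 0.29 ± 0.10 in dnPI3K-Mst1 (adjusted p = 0.042). The first call was lost without any of 8 animals (Mst1 1839, Ntg 1301, 1662 or 1834, or any of the 4 dnPI3K animals; -0.43 to -0.31), and without the 4 animals of low array correlation together (-0.23, adjusted p = 0.34). The second was lost without any of 5 (Mst1 1839, Ntg 1301 or 1662, dnPI3K-Mst1 1647 or 1649; -0.30 to -0.20). It was also lost with the arrays as units and the animal as replicate block (-0.29, adjusted p = 0.056), with array weights (-0.20, adjusted p = 0.069), with no filter on low signals (adjusted p = 0.051), in a fit of only the groups compared (adjusted p = 0.054) and without the 4 animals of low array correlation (-0.20, adjusted p = 0.087).

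Chac1 stood at 6.18, 6.07, 6.29 and 6.17 in the Ntg group, 6.01, 6.13, 5.87 and 6.26 with dnPI3K, 5.82, 5.9, 6.0 and 5.96 with Mst1 and 5.77, 5.84, 6.03 and 5.91 with both transgenes. Chac1 encodes an enzyme that breaks down glutathione and is a classical ATF4 and CHOP target. It lay lower in all 4 Mst1 and all 4 dnPI3K-Mst1 animals than in any Ntg animal, and the dnPI3K values spanned both ranges. Chac1 fell by 0.26 ± 0.09 in Mst1 (adjusted p = 0.027) and by 0.29 ± 0.09 in dnPI3K-Mst1 (adjusted p = 0.013). The Mst1 call was lost without Mst1 1466 or 1838 or without Ntg 1301 or 1662 (-0.26 to -0.22), and without the 4 animals of low array correlation (-0.19, adjusted p = 0.12). Trib3, a pseudokinase that feeds back on ATF4, differed by 0.02, -0.01 and 0.10 in Mst1, dnPI3K and dnPI3K-Mst1 against Ntg, and Sesn2, a sestrin that restrains mTORC1, by 0.08, -0.025 and 0.19, none of them called.

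**Figure D3:**
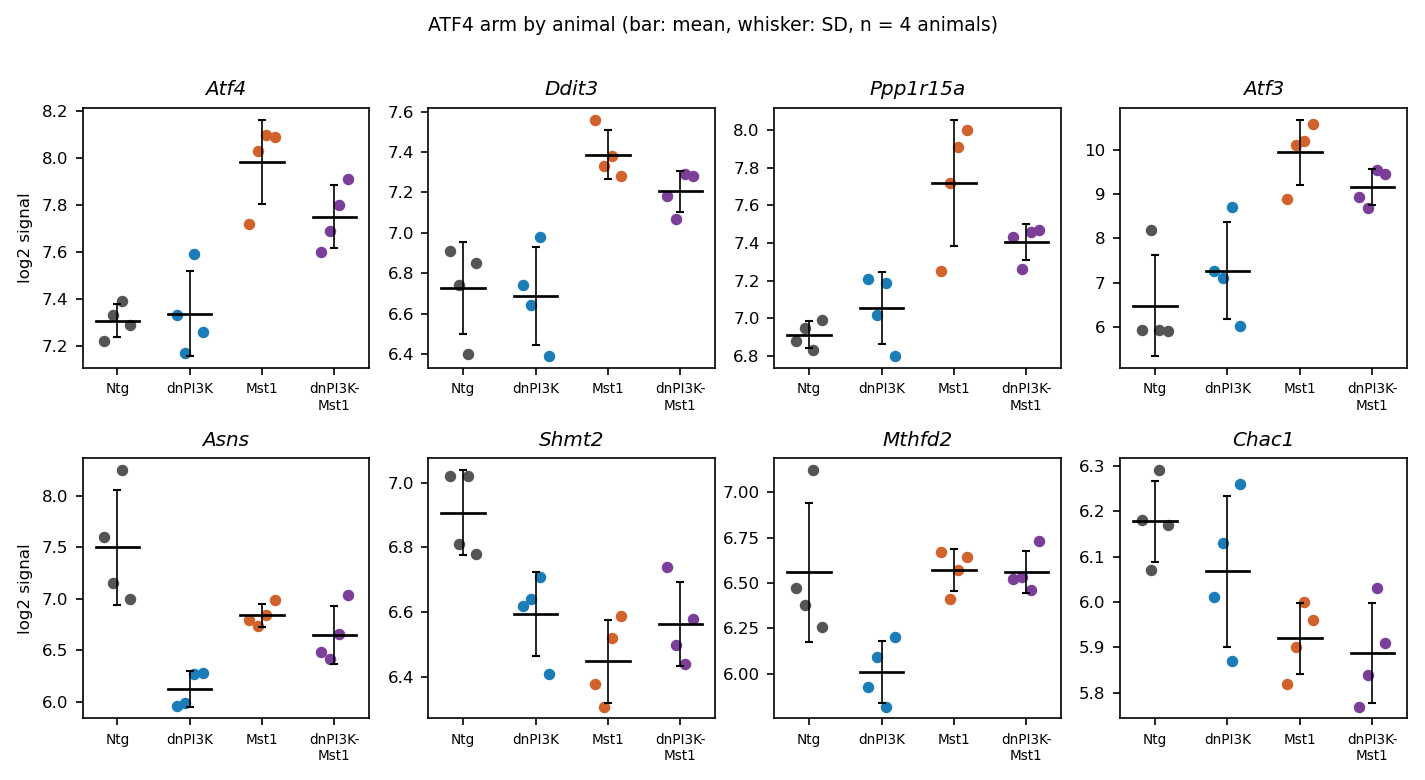
Log2 signal of 8 genes of the ATF4 arm in each of the 16 animals (points), with the group mean (bar) and SD (whisker, n = 4). Atf4, Ddit3 and Ppp1r15a are higher in all animals with Mst1 than in all without it, Atf3 of dnPI3K 1660 (8.71) reaches the dnPI3K-Mst1 range, and Asns is lowest in dnPI3K, where all 4 animals lie between 5.96 and 6.28, and Shmt2 and Chac1 are lower than Ntg in both Mst1 genotypes.

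Among the 6 enzymes of amino acid and one-carbon synthesis, grouped by role after their values were seen, 0 were higher than Ntg in any genotype, while 2 were lower in Mst1, 2 in dnPI3K and 3 with both transgenes. Over all genes, in the same order, 12.6%, 1.29% and 16.4% were higher and 14.2%, 2.75% and 14.2% lower. Among only 6 genes, 0 higher lies near those shares. Asns stood at 7.6, 7.15, 8.25 and 7.0 in the Ntg group, 5.96, 5.99, 6.27 and 6.28 with dnPI3K, 6.79, 6.73, 6.84 and 6.99 with Mst1 and 6.48, 6.41, 6.66 and 7.04 with both transgenes. Asns makes asparagine and is among the best known ATF4 targets. The dnPI3K animals lay below all others, the Mst1 animals below all Ntg animals, and 1 dnPI3K-Mst1 animal reached the Ntg range. Asns fell by 1.38 ± 0.19 in dnPI3K (2.60-fold, adjusted p = 0.00024), by 0.66 ± 0.19 in Mst1 (adjusted p = 0.015) and by 0.85 ± 0.19 in dnPI3K-Mst1 (adjusted p = 0.002). Without Ntg 1662, the highest animal, the Mst1 change was -0.41 (adjusted p = 0.054), and with the 4 animals of low array correlation left out together it was -0.395 (adjusted p = 0.088). The fall in dnPI3K was called in each of the 28 other settings tried, at -1.61 to -1.12.

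Shmt2 stood at 7.02, 6.81, 7.02 and 6.78 in the Ntg group, 6.62, 6.64, 6.71 and 6.41 with dnPI3K, 6.38, 6.31, 6.52 and 6.59 with Mst1 and 6.74, 6.5, 6.44 and 6.58 with both transgenes. Shmt2 is the mitochondrial enzyme that splits serine into glycine and a one-carbon unit. All animals of the 3 transgenic groups lay below all Ntg animals. Shmt2 fell by 0.46 ± 0.09 in Mst1 (adjusted p = 0.0007) and 0.35 ± 0.09 in dnPI3K-Mst1 (adjusted p = 0.0066), and differed by -0.32 ± 0.09 in dnPI3K (adjusted p = 0.057). Mthfd2 stood at 6.47, 6.38, 7.12 and 6.26 in the Ntg group, 5.93, 6.09, 5.82 and 6.2 with dnPI3K, 6.67, 6.41, 6.57 and 6.64 with Mst1 and 6.52, 6.53, 6.46 and 6.73 with both transgenes. Mthfd2, a mitochondrial enzyme of the same one-carbon route, was lower in all dnPI3K animals than in any other animal. It fell by 0.55 ± 0.14 in dnPI3K (adjusted p = 0.03) and differed from Ntg by 0.02 in Mst1 and 0.001 with both transgenes. The fall lost its call without Ntg 1662 (-0.36, adjusted p = 0.065), without dnPI3K 1507 (-0.52, adjusted p = 0.081) or without dnPI3K 1660 (-0.48, adjusted p = 0.089), without the 4 animals of low array correlation (-0.41, adjusted p = 0.079) and in a fit of only the groups compared (adjusted p = 0.069).

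Of the serine enzymes, Psat1 fell by 0.26 ± 0.09 in dnPI3K-Mst1 (adjusted p = 0.029), a call lost without Ntg 1301 or 1662 or dnPI3K-Mst1 1509 or 1649 (-0.25 to -0.20) or with the 4 animals of low array correlation left out (-0.20, adjusted p = 0.098), and Phgdh differed by 0.08, -0.08 and -0.01 in Mst1, dnPI3K and dnPI3K-Mst1. The Psat1 signal was low, at a mean of 5.08 log2 against the filter at 4.48. A filter at the 50th percentile left Psat1 out. Aldh18a1, which opens proline synthesis, differed by 0.19, -0.11 and 0.23. None of these other values was called.

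Set directly against dnPI3K, Mst1 atria had 19 members higher and 1 lower, where 11.8% of all genes were higher and 10% lower. In the ATF4 arm 7 of 14 were higher and 0 lower: Atf3 by 2.67 ± 0.51, Asns by 0.72 ± 0.19, Ddit3 by 0.70 ± 0.12, Ppp1r15a by 0.67 ± 0.13, Atf4 by 0.65 ± 0.10, Mthfd2 by 0.56 ± 0.14 and Atf5 by 0.42 ± 0.10. Of the chaperones 10 of 13 were higher and 0 lower, the same 10 as against Ntg, led by Creld2 (0.76 ± 0.11). The other 2 higher were Xbp1 and Edem1, and Herpud1 was lower. The calls for Hspa5, Hyou1, Dnajc3 and Hsp90b1 were each lost without 1 animal (Mst1 1840 for all 4, other animals for the first 3), at 0.22 to 0.50. The others for Hspa5 and Hyou1 were Mst1 1838 and 1839 and dnPI3K 1648, 1660 and 3241, and for Dnajc3 Mst1 1838 and 1839, Ntg 1301, dnPI3K 1648 and 3241, and dnPI3K-Mst1 1649 and 1650. Sdf2l1 was still called without dnPI3K 3241, at 0.26 in place of 0.395, but not without the 4 animals of low array correlation (0.25, adjusted p = 0.064).

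The double genotype set against dnPI3K had 11 members higher and 1 lower, where 12.8% of all genes were higher and 8.8% lower. In the ATF4 arm 5 of 14 were higher: Atf3 by 1.88 ± 0.51, Mthfd2 by 0.55 ± 0.14, Ddit3 by 0.52 ± 0.12, Atf4 by 0.41 ± 0.10 and Aldh18a1 by 0.34 ± 0.11. Asns lay above dnPI3K in all 4 animals (0.52 ± 0.19, adjusted p = 0.06). Without dnPI3K 3241 the Atf3 difference was 1.47 (adjusted p = 0.051), and with the 4 animals of low array correlation left out it was 1.25 (adjusted p = 0.12). Aldh18a1 was not called without any of 5 animals (dnPI3K 1648, 1660 or 3241, dnPI3K-Mst1 1647 or 1650) or after quantile normalization (adjusted p = 0.062). The count of 11 higher was 21 without Mst1 1466, which enters through the shared spread, 5 without dnPI3K 3241, and 7 without dnPI3K 1648, dnPI3K-Mst1 1649 or dnPI3K-Mst1 1650. The share of all genes higher moved too, to 16.1%, 9.63%, 10.3%, 11.1% and 10.1% in turn.

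The 4 genes of ER stress sensing were the sensor genes Atf6, Eif2ak3 and Ern1, and Xbp1, a target of IRE1 and not itself a sensor. Eif2ak3 and Xbp1 were higher in Mst1, and Eif2ak3, Ern1 and Xbp1 in dnPI3K-Mst1 against Ntg, where 12.6% and 16.4% of all genes were higher. Xbp1 stood at 8.49, 8.52, 8.38 and 8.38 in the Ntg group, 8.66, 8.5, 8.46 and 8.41 with dnPI3K, 8.73, 9.04, 8.97 and 9.04 with Mst1 and 8.66, 8.65, 8.75 and 8.84 with both transgenes. Xbp1 is the transcription factor whose mRNA is spliced by IRE1, and the probe set does not report the splicing. All 8 animals with Mst1 lay above all Ntg animals. Xbp1 rose by 0.50 ± 0.09 in Mst1 (adjusted p = 0.00014) and 0.28 ± 0.09 in dnPI3K-Mst1 (adjusted p = 0.016), and differed by 0.07 ± 0.09 in dnPI3K (interval -0.11 to 0.24). The second change was 0.24 without dnPI3K-Mst1 1650 (adjusted p = 0.059) and 0.24 with each array centred on its median (adjusted p = 0.052).

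Eif2ak3, the gene of PERK, rose by 0.40 ± 0.10 in Mst1 (adjusted p = 0.0054) and by 0.47 ± 0.10 in dnPI3K-Mst1 (adjusted p = 0.0013), with all animals of both groups above all Ntg animals. Ern1, the gene of IRE1, rose by 0.48 ± 0.125 in dnPI3K-Mst1 (adjusted p = 0.006). In Mst1 its change was 0.325 ± 0.125 (adjusted p = 0.061), with Mst1 1466 at 6.58 and the other 3 Mst1 animals between 7.15 and 7.33. Atf6 differed by 0.30 ± 0.12 in Mst1 (adjusted p = 0.066) and 0.23 ± 0.12 in dnPI3K-Mst1 (adjusted p = 0.15), and again Mst1 1466, at 8.96, lay below the other 3 (9.39 to 9.47).

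Of the chaperones, Creld2 stood at 7.46, 7.7, 7.32 and 7.4 in the Ntg group, 7.75, 7.62, 7.57 and 7.4 with dnPI3K, 8.02, 8.29, 8.5 and 8.59 with Mst1 and 7.86, 7.73, 7.9 and 7.9 with both transgenes. Creld2 is an ER-resident protein of the disulfide isomerase type that is strongly induced when proteins misfold. Its Mst1 values lay above every animal of the other 3 groups, and its dnPI3K-Mst1 values lay above Ntg but overlapped dnPI3K. Creld2 rose by 0.88 ± 0.11 in Mst1 (1.84-fold, adjusted p = 6.9e-06) and by 0.38 ± 0.11 in dnPI3K-Mst1 (adjusted p = 0.014). The second call was lost without Ntg 1662 (0.33, adjusted p = 0.053).

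Hspa5 stood at 10.32, 10.53, 10.3 and 10.4 in the Ntg group, 10.57, 10.24, 10.37 and 10.33 with dnPI3K, 10.37, 10.79, 10.72 and 10.81 with Mst1 and 10.37, 10.46, 10.65 and 10.59 with both transgenes. Hspa5 encodes BiP, the main Hsp70 chaperone of the ER and the protein that holds the sensors inactive. The Mst1 animals other than 1466 lay above all Ntg animals, and 1466 lay among them. Hspa5 rose by 0.28 ± 0.10 in Mst1 (adjusted p = 0.042), and differed by 0.13 ± 0.10 in dnPI3K-Mst1 (adjusted p = 0.36) and -0.01 ± 0.10 in dnPI3K (interval -0.22 to 0.20). The Mst1 call was lost without any of 7 animals (Mst1 1838, 1839 or 1840, Ntg 1301, 1662 or 1834, dnPI3K 1660; 0.24 to 0.29, adjusted p = 0.052 to 0.13) and with each array centred on its median (0.27, adjusted p = 0.059), with no filter on low signals (adjusted p = 0.054) and in a fit of only the groups compared (adjusted p = 0.073).

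Pdia4 stood at 8.53, 8.65, 8.39 and 8.34 in the Ntg group, 8.73, 8.49, 8.59 and 8.63 with dnPI3K, 8.67, 9.05, 9.11 and 9.24 with Mst1 and 8.81, 9.06, 9.06 and 9.0 with both transgenes. Pdia4 is a disulfide isomerase. All animals with Mst1 lay above all Ntg animals. Pdia4 rose by 0.54 ± 0.11 in Mst1 (adjusted p = 0.00075) and by 0.50 ± 0.11 in dnPI3K-Mst1 (adjusted p = 0.0012). Pdia4 had a second probe set far dimmer than the first, and with the mean of both its difference of Mst1 from dnPI3K was 0.24 (adjusted p = 0.17) in place of 0.41 (adjusted p = 0.0087). The other isomerases followed, Pdia6 by 0.46 ± 0.11 and 0.29 ± 0.11 and Pdia3, which works on glycoproteins with the lectin chaperones, by 0.34 ± 0.09 and 0.30 ± 0.09, in Mst1 and dnPI3K-Mst1 respectively.

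The remaining chaperones called in Mst1 were Hyou1, an Hsp70-like exchange factor (0.48 ± 0.16), Hsp90b1, the ER Hsp90 (0.45 ± 0.09), Manf, a secreted stress factor (0.42 ± 0.10), Sdf2l1, an ER cochaperone (0.40 ± 0.11), and Dnajc3, a BiP cochaperone that also inhibits PERK (0.38 ± 0.10). Of these Hsp90b1 (0.32 ± 0.09) and Dnajc3 (0.39 ± 0.10) were also called in dnPI3K-Mst1. Hyou1 lost its Mst1 call without Mst1 1838, 1839 or 1840 or Ntg 1662 or 1834 (0.36 to 0.48), and in a fit of only the groups compared (adjusted p = 0.082). In dnPI3K-Mst1 the calls for Hsp90b1 and Pdia3 were lost without Ntg 1662 (0.26 and 0.25), and that for Pdia6 without any of 11 animals (0.26 to 0.32, adjusted p = 0.053 to 0.13). Those 11 were Mst1 1838 and 1839, all 4 Ntg animals, dnPI3K 1660 and 3241, and dnPI3K-Mst1 1647, 1649 and 1650. The Pdia6 call was also lost with each array centred on its median (0.25, adjusted p = 0.11) and with no filter on low signals (adjusted p = 0.059).

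The lectin chaperones that hold glycoproteins did not pass the test in any comparison. Calr differed by 0.23 ± 0.11 in Mst1 (adjusted p = 0.12) and 0.27 ± 0.11 in dnPI3K-Mst1 (adjusted p = 0.07), and Canx by 0.04 ± 0.08 and 0.05 ± 0.08. Dnajb9, the cochaperone that represses IRE1, differed by 0.18 ± 0.13 and -0.14 ± 0.13.

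**Figure D4:**
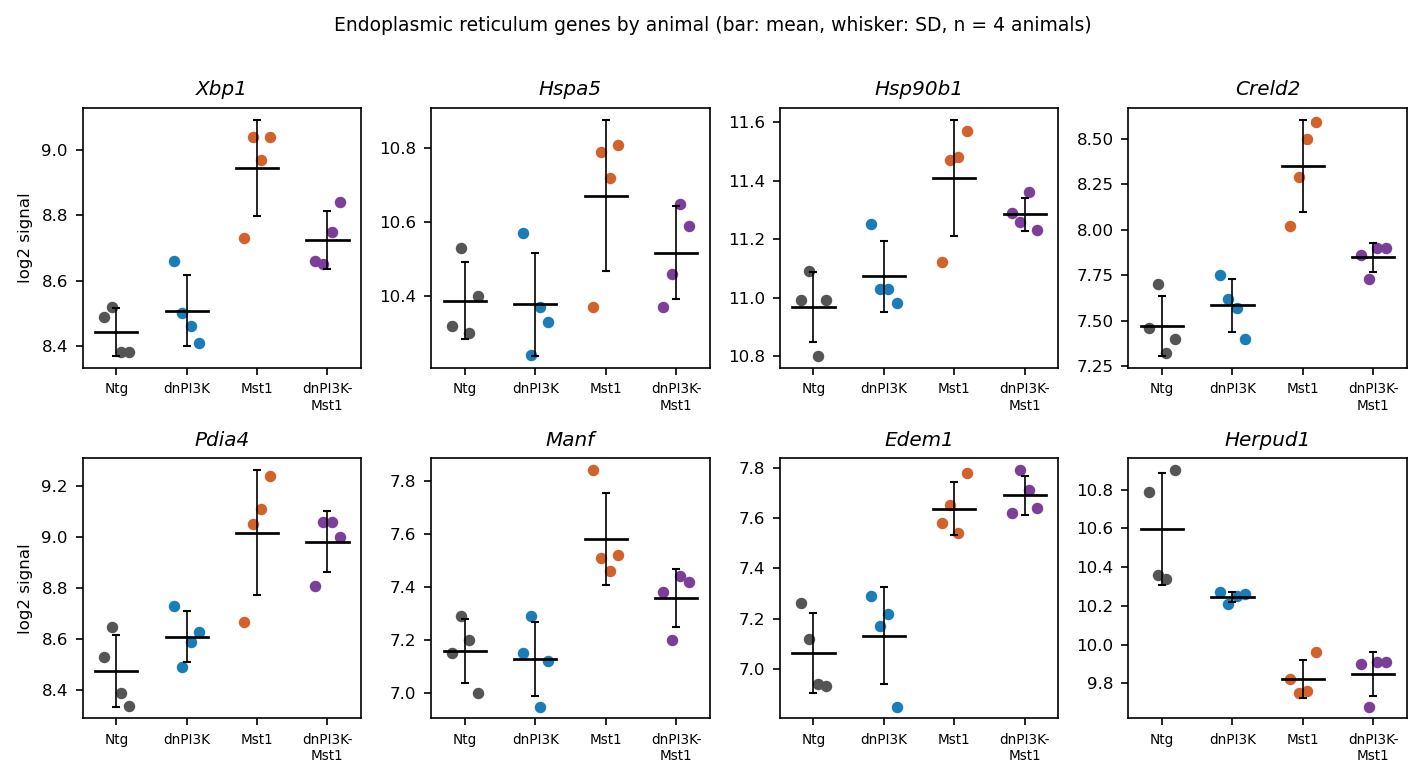
Log2 signal of 8 ER genes in each of the 16 animals (points), with the group mean (bar) and SD (whisker, n = 4). Xbp1, Creld2, Pdia4, Manf and Edem1 are higher in all 4 Mst1 animals than in all 4 Ntg animals, as is Hsp90b1, Hspa5 of Mst1 1466 lies among the Ntg values, and Herpud1 is lower in all 8 animals with Mst1 than in all others.

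Degradation genes were led by 2 genes that went in opposite directions. Edem1 stood at 7.26, 7.12, 6.94 and 6.93 in the Ntg group, 7.29, 7.17, 7.22 and 6.85 with dnPI3K, 7.58, 7.65, 7.54 and 7.78 with Mst1 and 7.62, 7.79, 7.71 and 7.64 with both transgenes. Edem1 delivers misfolded glycoproteins to degradation. All 8 animals with Mst1 lay above all 8 without it, and Edem1 rose by 0.57 ± 0.10 in Mst1 (adjusted p = 0.00017) and by 0.62 ± 0.10 in dnPI3K-Mst1 (adjusted p = 5.9e-05). Herpud1 stood at 10.79, 10.36, 10.34 and 10.9 in the Ntg group, 10.27, 10.21, 10.25 and 10.26 with dnPI3K, 9.82, 9.75, 9.76 and 9.96 with Mst1 and 9.9, 9.68, 9.91 and 9.91 with both transgenes. Herpud1 is a membrane scaffold of the degradation complex, and the stretch shown above places an ATF4-type and an ER stress-type match in front of it. Here all 8 animals with Mst1 lay below all 8 without it, and all dnPI3K animals below all Ntg animals. Herpud1 fell by 0.78 ± 0.11 in Mst1 (adjusted p = 1.7e-05) and by 0.75 ± 0.11 in dnPI3K-Mst1 (adjusted p = 2.1e-05), and differed by -0.35 ± 0.11 in dnPI3K (adjusted p = 0.074).

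The ligase Syvn1 rose by 0.26 ± 0.09 in Mst1 and 0.30 ± 0.09 with both transgenes, its partner Sel1l by 0.30 ± 0.11 in dnPI3K-Mst1, and the channel protein Derl2 by 0.27 ± 0.08 in Mst1. The Derl2 change was 0.19 (adjusted p = 0.054) without the 4 animals of low array correlation, and 0.089 on arrays labelled left against 0.448 on those labelled right (adjusted p = 0.72 and 0.0062). By Bmp10, each labelled side held unlike mixes of atria in Mst1 and Ntg. The Syvn1 calls were lost without any of 9 animals in Mst1 (Mst1 1838, 1839 or 1840, Ntg 1301, 1662 or 1834, dnPI3K 1660, dnPI3K-Mst1 1509 or 1650; 0.20 to 0.28) and without Ntg 1834 or dnPI3K-Mst1 1649 in dnPI3K-Mst1 (0.25 and 0.26). The Sel1l call was lost without any of 7 animals (Ntg 1657, 1662 or 1834, or any of the 4 dnPI3K-Mst1 animals; 0.26 to 0.32). With each array centred on its median, the Sel1l call (adjusted p = 0.088) and the Syvn1 calls in Mst1 (0.074) and dnPI3K-Mst1 (0.058) were lost too. Derl1 differed by 0.06 and 0.04 and Derl3 by 0.01 and -0.04 in the 2 genotypes, and neither was called in any comparison. Against dnPI3K, the dnPI3K-Mst1 animals were higher for Edem1 (0.56 ± 0.10), Pdia4 (0.37 ± 0.11), Sel1l (0.32 ± 0.11), Pdia3 (0.30 ± 0.09), Dnajc3 (0.30 ± 0.10) and Syvn1 (0.28 ± 0.09) and lower for Herpud1 (-0.40 ± 0.11). Of these 7 calls, those for Edem1 and Herpud1 were kept without each animal in turn. Pdia4 lost its call without dnPI3K 1648 (0.33), Pdia3 without dnPI3K 1660 or 3241 or dnPI3K-Mst1 1647 or 1649 (0.26 to 0.30), and Dnajc3, Sel1l and Syvn1 without any of 5, 6 and 5 animals (0.21 to 0.33), dnPI3K 3241 and dnPI3K-Mst1 1509, 1649 and 1650 for each of them. Centring each array on its median lost Dnajc3 (adjusted p = 0.054), Sel1l (0.053) and Syvn1 (0.056) as well. Without the 4 animals of low array correlation, Dnajc3 (0.055) and Syvn1 (0.14) were not called. Syvn1 was also lost after quantile normalization (0.063) and in a fit of only the groups compared (0.052).

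Averaged over each role within an animal and set against the Ntg mean, the chaperones stood at -0.12 to 0.12 log2 in Ntg, -0.07 to 0.19 in dnPI3K, 0.17 to 0.54 in Mst1 and 0.19 to 0.30 with both transgenes. The ATF4 arm stood at -0.15 to 0.10, -0.31 to -0.03, 0.17 to 0.43 and 0.10 to 0.29, means on which Atf3 and Asns, with the largest changes, weigh most. Its medians overlapped, at -0.108 to 0.113 in Ntg, -0.24 to -0.049 in dnPI3K, -0.014 to 0.138 in Mst1 and -0.004 to 0.145 with both transgenes. By mean, Mst1 1466 was the lowest Mst1 animal for all 4 roles. By median, Mst1 1838 (-0.014) lay below Mst1 1466 (0.025) in the ATF4 arm. The median of Mst1 1466 over the chaperones was 0.13, against 0.40, 0.41 and 0.53 in the other 3 Mst1 animals.

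**Figure D5:**
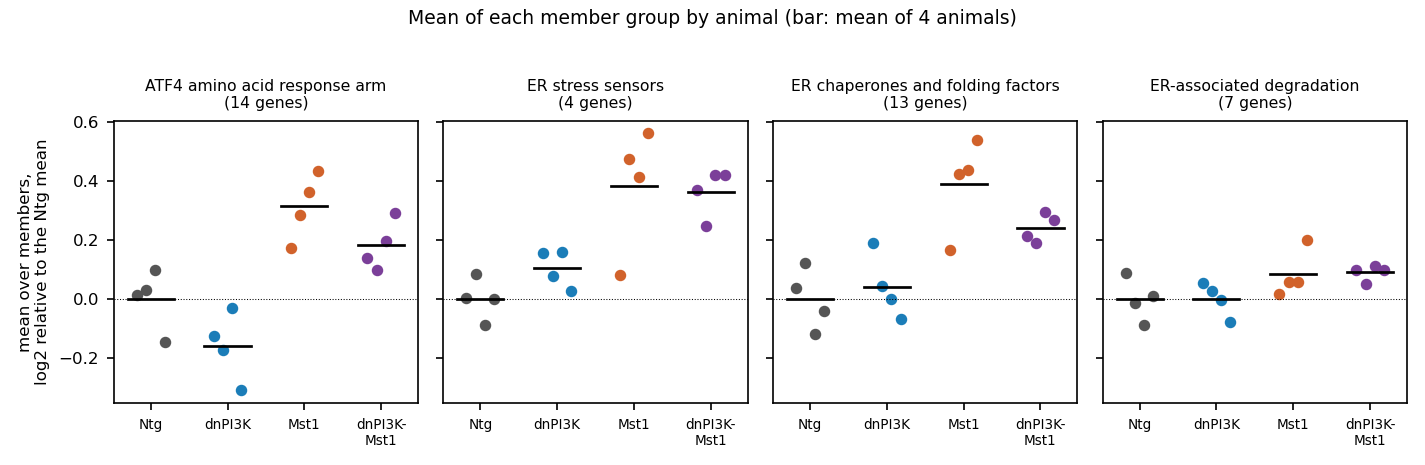
Mean over the members of each role in each animal, in log2 relative to the mean of the 4 Ntg animals (bar: mean of 4 animals). The chaperones of Mst1 1466 stand at 0.17 and those of the other 3 Mst1 animals between 0.42 and 0.54, while the ATF4 arm lies below 0 in all 4 dnPI3K animals.

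Against Mst1, dnPI3K-Mst1 atria had 0 members higher and 1 lower, where 2.65% of all genes were higher and 0.848% lower. The share of higher genes among all calls was 75.8% and 64.2% after quantile normalization of the arrays. The count of 1 lower was 7 with array weights (4.22% of all genes lower), 7 without the 4 animals of low array correlation (2.65%) and 0 in a fit of only the groups compared (0.335%). Creld2 fell by 0.50 ± 0.11 (adjusted p = 0.017), with all 4 dnPI3K-Mst1 animals below all 4 Mst1 animals. That call was lost without Mst1 1839, Mst1 1840 or dnPI3K-Mst1 1647 (-0.46 to -0.42) and in the fit of only the groups compared (adjusted p = 0.051). Without Mst1 1466, 4 members were lower, where 2.17% of all genes were lower and 56.7% of all calls were higher. That share was 55.4% with the 4 animals of low array correlation left out. Of the 13 chaperones 10 had a value below 0, with a median of -0.15. Without adjustment, at p under 0.05, 0 members were higher and 8 lower, where 11.1% of all genes were higher and 6.0% lower.

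The non-additivity term, the dnPI3K-Mst1 change less the sum of both single changes, called 0 members in either direction (limma), where 0.368% of all genes were called higher and 0.145% lower. At an unadjusted p under 0.05 there were 4 members above 0 and 4 below, where 7.91% of all genes lay above and 2.98% below. The smallest p was that of Asns (1.18 ± 0.27, adjusted p = 0.055), whose falls of 1.38 and 0.66 in the single genotypes stand beside a fall of 0.85 in the double. For Creld2 it was -0.61 ± 0.16 (adjusted p = 0.091), for Shmt2 0.43 ± 0.13 (adjusted p = 0.16) and for Mthfd2 0.53 ± 0.20 (adjusted p = 0.28). Without Ntg 1657, 1662 or 1834 or dnPI3K-Mst1 1647, 1 member was called above 0, and without Mst1 1466 2 members were called below 0. The shares of all genes called above 0 were then 0.322%, 0.486%, 0.559% and 0.532% in turn. Without Mst1 1466, 0.598% of all genes were called below 0.

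Genes of the same pathways outside the 38 were read in the same fit. Over all genes tested, 12.6% were higher and 14.2% lower in Mst1 against Ntg, 1.29% and 2.75% in dnPI3K, and 16.4% and 14.2% with both transgenes. Some of the counts below lie near these shares, such as the 4 of 30 lower in Mst1. Of 30 tested further ATF4 targets and regulators, 6 were higher and 4 lower in Mst1 against Ntg, 1 and 1 in dnPI3K, and 10 and 3 with both transgenes. Slc38a2, the amino acid transporter that responds to amino acid shortage, rose in all 3 genotypes: by 1.15 ± 0.19 in Mst1, 0.92 ± 0.19 in dnPI3K and 1.41 ± 0.19 with both transgenes. The neutral amino acid transporter Slc1a4 (0.79 ± 0.10), the stress cofactor Nupr1 (0.77 ± 0.10) and the ATF4 partner Cebpg (0.39 ± 0.10) also rose in Mst1. The transaminase Gpt2 (-0.52 ± 0.13), the cysteine-forming enzyme Cth (-0.49 ± 0.09), Vldlr (-0.32 ± 0.10) and Fgf21 (-0.27 ± 0.09) fell.

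Slc7a5 encodes the leucine transporter. Slc7a5 stood at 7.05, 6.86, 6.93 and 6.72 in the Ntg group, 6.2, 6.41, 6.33 and 6.03 with dnPI3K, 6.7, 7.0, 7.01 and 7.1 with Mst1 and 6.85, 6.86, 6.87 and 6.97 with both transgenes. All dnPI3K animals lay below all others. It fell by 0.65 ± 0.10 in dnPI3K against Ntg (adjusted p = 0.00043), differed by 0.06 in Mst1 and by -0.002 in dnPI3K-Mst1, and was 0.64 ± 0.10 higher in dnPI3K-Mst1 than in dnPI3K (adjusted p = 6.5e-05). Of 18 cytosolic aminoacyl-tRNA synthetases, the enzymes that charge tRNAs, 2 (Rars and Nars) were higher in Mst1 against Ntg, 1 (Gars, -0.28 ± 0.08) was lower in dnPI3K, and 5 were higher in Mst1 than in dnPI3K, with a median of 0.19. The shares of all genes called in those directions were 12.6%, 2.75% and 11.8% in turn, and the 2 of 18 lie near the first. Their median in dnPI3K against Ntg was -0.13, with 17 of 18 below 0.

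Of 30 other ER folding genes 8 were higher and 0 lower in Mst1 against Ntg, 0 were called in dnPI3K, and 13 were higher and 0 lower with both transgenes. For the counts here, the shares of all genes were 12.6% higher and 14.2% lower in Mst1 and 1.29% and 2.75% in dnPI3K. With both transgenes they were 16.4% and 14.2%. The largest in Mst1 were the Golgi GTPase activator Arfgap3 (0.85 ± 0.11), the ER-tethered factor Creb3 (0.56 ± 0.08), the BiP cochaperone Dnajb11 (0.53 ± 0.10) and the isomerase Txndc5 (0.53 ± 0.10), and in dnPI3K-Mst1 Txndc5 (0.82 ± 0.10). The translocon and signal peptidase had 5 of 20 higher in Mst1 and 6 with both transgenes, among them Spcs3, Sec62 and Sec63 in both. Of 21 other degradation genes 5 were higher in Mst1, led by Ubxn4 (0.54 ± 0.10) and Edem3 (0.45 ± 0.10). In dnPI3K-Mst1 5 were higher and 3 lower, the latter Ube2g2, Svip and Rnf5. Those 3 of 21 lie near the 14.2% of all genes lower.

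Genes of the mitochondrial stress response went the other way. Of 13 tested, 0 were higher and 8 lower in Mst1, 1 was lower in dnPI3K and 10 with both transgenes, with medians of -0.25, -0.18 and -0.42 log2. Over all genes 12.6% were higher and 14.2% lower in Mst1, 2.75% lower in dnPI3K and 14.2% lower with both transgenes. Dele1 stood at 8.29, 8.09, 8.27 and 8.22 in the Ntg group, 7.87, 8.12, 8.02 and 7.78 with dnPI3K, 7.26, 7.2, 7.37 and 7.35 with Mst1 and 7.47, 7.11, 7.24 and 7.38 with both transgenes. Dele1 carries mitochondrial stress to the cytosol, where it activates an eIF2 alpha kinase, after cleavage by the protease Oma1. All 8 animals with Mst1 lay below all 8 without it, and Dele1 fell by 0.92 ± 0.09 in Mst1 and with both transgenes (adjusted p = 2.7e-07 and 2.1e-07). Oma1 fell by 0.53 ± 0.08 in Mst1, 0.40 ± 0.08 in dnPI3K and 0.72 ± 0.08 with both transgenes, and Dnaja3 and Trap1 fell by 0.54 ± 0.11 and 0.51 ± 0.10 in Mst1. The eIF2 alpha kinase genes Eif2ak1, Eif2ak2 and Eif2ak4 differed by -0.04, -0.02 and 0.09 in Mst1 and were called in no comparison.

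The tissue is a mixture, so a lower signal cannot tell fewer cells of a type from less RNA per cell. Beside the marker counts below, 12.6% of all genes were higher and 14.2% lower in Mst1 against Ntg. The shares were 1.29% and 2.75% in dnPI3K, and 16.4% and 14.2% with both transgenes. Of 10 fibroblast markers, cells with a rich ER, 4 were higher in Mst1, 1 in dnPI3K and 8 with both transgenes, and their summed linear signal ran from 14071 to 18107 in Ntg, 15113 to 18583 in dnPI3K, 19071 to 19703 in Mst1 and 20619 to 24960 with both transgenes. Smooth muscle markers had 3 of 4 higher in both Mst1 genotypes, with sums of 1045 to 1136 in Ntg, 1399 to 2479 in Mst1 and 2093 to 2749 with both transgenes. These sums moved in the same direction as the chaperones, and their part in the chaperone changes was not tested. Endothelial markers had 4 of 6 lower in Mst1 (sums of 4803 to 5534 in Ntg and 3610 to 4554 in Mst1). Plasma and B cells, which also have an extensive ER, had Jchain, Cd79a and Ms4a1 below the filter on low signals, and the sum of the other 3 was 131 to 139 in Ntg and 107 to 126 in Mst1. Macrophage sums overlapped between Ntg (2374 to 3371) and Mst1 (2504 to 3204), with 0 of 8 markers called, and in dnPI3K-Mst1 they were 2969 to 4980 with 3 of 8 higher. Atrial myocyte sums overlapped as well (41612 to 44771 in Ntg, 39462 to 44434 in Mst1), with 2 of 7 lower in Mst1. Of 2 ventricular markers 1 was lower in Mst1 (sums of 178 to 297 in Ntg and 86 to 110 in Mst1), and both adipocyte markers tested were lower there (655 to 1320 and 571 to 743), Adipoq and Lep being below the filter.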

How the data were processed

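Total RNA (100 ng) from each atrium was hybridised to Affymetrix Mouse Gene 1.0 ST arrays, per the labels' protocols. The deposited values are log2-like signals of 35512 probe sets between 1.16 and 14.08. The submitters' processing notes name Affymetrix Expression Console and PLIER, and the log base and scaling are not given in the sources used here, so log2 is read from the range. Probe sets with 1 symbol (21789) gave 19938 genes. Those with several symbols (1621) or none (12102) were left out, and 1 member symbol also sits on such a shared probe set. Dnajc3 and Pdia4 have 2 probe sets each. Genes under the 30th percentile of probe set means (4.48) were left out.

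Each animal's 2 arrays were averaged, and limma 3.58.1 (R 4.3.3, lmFit and eBayes with trend) was fitted to all 4 genotypes with Benjamini-Hochberg adjustment over 15219 genes, two-sided, called at an adjusted p under 0.05. The fit was also run on simulated animals with independent normal noise for each gene. That setting held no differences between atria and no arrays of low correlation, so it does not cover them. Nothing says whether animals share litters, and p-values measure the spread between animals. Deviations from the mean of each genotype and labelled side were correlated between an animal's 2 arrays. The median was 0.05 (-0.42 to 0.44, over 0.1 in 7 of 16). In Ntg and Mst1 a labelled side held different atria by Bmp10, which enters these deviations. The values were -0.16 to -0.01 in Ntg and -0.42 in Mst1 1839, where Bmp10 was higher on the right. The median is thus not a plain measure of how alike an animal's 2 atria were. The members and lists were chosen with earlier results of these data known, and the split of the ATF4 arm into regulators and enzymes was made after seeing values. All members are named. From each further list (other ATF4 targets and regulators, cytosolic aminoacyl-tRNA synthetases, other ER folding genes, ER translocon and signal peptidase, other ER-associated degradation, mitochondrial unfolded protein response) up to 4 called genes per direction were named by size, and kinases and Gars beside them. Alternatives were other scalings, filters, probe set means, no trend, array weights, 1 labelled side, only the groups compared, and leaving out animals. A further fit took the arrays as units, with the animal as block and labelled side as a term.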

Additional observations from a re-analysis of the deposited data

Results flagged for a closer look

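Among 152 sets of 4 animals (38 members in 4 genotypes), 11 held 1 animal whose gap to the nearest other was large against the range of its set, where chance gives about 1 in 20 sets. Of the 11, 4 came from Mst1 1466: Atf6 at 8.96 (nearest 9.39), Pdia3 at 10.86 (nearest 11.17), Pdia6 at 9.2 (nearest 9.62), each the lowest of its group, and Manf at 7.84, the highest (nearest 7.52). The left array of that animal was among the 4 with a low mean correlation with the others.

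Atf3 of Ntg 1657 stood at 8.19 with the nearest Ntg animal at 5.92. In dnPI3K the single animals were Atf5 of 3241 at 7.61 (nearest 7.94), Phgdh of 1648 at 6.17 (nearest 5.9), Dnajb9 of 1660 at 8.69 (nearest 8.87) and Calr of 1507 at 10.21 (nearest 9.96). Aldh18a1 of Ntg 1834 stood at 6.64 (nearest 7.0), and Herpud1 of dnPI3K-Mst1 1647 at 9.68 (nearest 9.9).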

How the results depend on the processing

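Of 81 called results on members, 24 were called in all 28 other settings and 52 without each animal in turn, and of 2267 values 0 reversed. Leaving out 1 animal gave 16 to 24 members higher and 2 to 5 lower in Mst1 against Ntg (2 without Ntg 1662), 0 to 0 and 1 to 4 in dnPI3K against Ntg (1 without dnPI3K 1507 or 1660), 11 to 18 and 4 to 6 in dnPI3K-Mst1 against Ntg, 0 to 0 and 0 to 4 against Mst1, 5 to 21 and 1 to 1 against dnPI3K, 15 to 25 and 1 to 1 in Mst1 against dnPI3K, and 0 to 1 and 0 to 2 for non-additivity. In these fits the share of all genes higher was 9.6% to 17.5% in Mst1 and 13.5% to 19.9% in dnPI3K-Mst1 against Ntg. Against dnPI3K it was 9.63% to 16.1% in dnPI3K-Mst1 and 9.15% to 16.5% in Mst1. The share lower was 12.4% to 14.7% in Mst1, 1.68% to 4.57% in dnPI3K and 12.3% to 15.9% in dnPI3K-Mst1 against Ntg. It was 0.25% to 2.17% in dnPI3K-Mst1 against Mst1. Non-additivity had 0.25% to 0.762% higher and 0.0986% to 0.598% lower.

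The share of all genes called in the same setting and direction stands in parentheses. On arrays labelled left, 9 members were higher in Mst1 against Ntg (4.9%), 1 lower in dnPI3K (0.499%), 5 higher (7.5%) and 2 lower (8.38%) with both transgenes, 0 lower against Mst1 (0.0197%), 5 higher against dnPI3K (7.1%), and 11 higher in Mst1 against dnPI3K (5.91%). On arrays labelled right, 2 were lower in Mst1 (9.78%), 1 in dnPI3K (1.05%) and 2 with both transgenes (11.3%) against Ntg, 6 higher (7.59%) and 0 lower (6.78%) in dnPI3K-Mst1 against dnPI3K, and 0 lower in Mst1 against dnPI3K (7.31%). Of the 81 calls 43 were lost on the left and 27 on the right arrays, which leave 1 array an animal. Bmp10 was higher on the left in 2 of 4 Ntg and 3 of 4 Mst1 animals, and in 4 of 4 in each dnPI3K group. Outside dnPI3K-Mst1 against dnPI3K, these fits thus set unlike mixes of atria against each other. There, genotype and atrium cannot be told apart. Without the 4 animals of low array correlation, 2 were lower in Mst1 (13.6%), 1 in dnPI3K (1.2%), 7 in dnPI3K-Mst1 against Mst1 (2.65%) and 2 for non-additivity (0.289%). Array weights gave 7 lower against Mst1 (4.22%), 22 higher against dnPI3K (17.0%), and 1 higher (1.62%) and 2 lower (0.736%) for non-additivity. With the arrays as units and the animal as replicate block (correlation 0.12), 5 were lower in dnPI3K (3.38%), 18 higher in dnPI3K-Mst1 against dnPI3K (13.9%), and 1 higher (0.631%) and 1 lower (0.158%) for non-additivity, and 1 call, that of Atf5 in dnPI3K-Mst1, was lost. Both that fit and its correlation took labelled side as a term, though a labelled side held different atria within Ntg and within Mst1. Quantile normalization gave 1 lower for non-additivity (0.158%), and fitting only the groups compared gave 0 lower against Mst1 (0.335%). Calls lost were 9 of 81 with each array centred on its median, 10 in fits of only the groups compared and 11 without the 4 animals. Apart from these constructions the cause was not tested. No paired analysis was possible because the genotypes share no animal numbers.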
